A study of Mus musculus with 27 samples.

Results

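The RNA levels of the DNA methyltransferases and their partners were followed in mouse embryonic stem cells: Dnmt1, Dnmt3a, Dnmt3b, Dnmt3l, Uhrf1, Tet1 and Tet2, 7 of the 53801 genes in the deposited count table. They were chosen by name, and their symbols were matched to the table's Ensembl identifiers with GENCODE M21. In that annotation (GRCm38) all 7 are protein-coding and autosomal: Dnmt1 lies on chromosome 9, Dnmt3a on 12, Dnmt3b on 2, Dnmt3l and Tet1 on 10, Uhrf1 on 17 and Tet2 on 3. The series asks whether the SPOC domain of SPEN, a protein needed for Xist to silence genes, can stand in for SPEN in X inactivation. All 27 libraries came from TX1072 mouse embryonic stem cells (strain BL/6J x CAST-EiJ), in which doxycycline switches on Xist, the RNA that coats and silences an X chromosome. Every group, untreated ones included, carried the SPEN-AID degron, through which auxin depletes the SPEN protein, and grew in serum medium with LIF and the inhibitors CHIR99021 and PD0325901.

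The GFP line carried BglG-GFP, a bacterial RNA-binding protein fused to a fluorescent protein, and the SPOC line carried BglG-GFP-SPOC, the same fusion with the SPOC domain added. Both lines had an untreated group, a group with 24 h of doxycycline at 1 ug/mL (Dox), and a group pre-treated with auxin for 12 h before 24 h of both agents together (Dox+Auxin). GFP groups had 4 libraries each and SPOC groups 5, whereas the design text gives 4 biological replicates. Each construct was present in 1 line, so construct and line cannot be told apart. No group had auxin alone, no group had auxin without the degron, and none had doxycycline without inducible Xist.

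DNMT1 copies methylation onto the new strand after replication, and UHRF1 finds the hemimethylated sites and brings DNMT1 to them. DNMT3A and DNMT3B set methylation at new sites, and DNMT3L, which has no catalytic activity, assists them. TET1 and TET2 oxidise 5-methylcytosine, a step towards its removal. Embryonic stem cells held with these inhibitors are known for low DNA methylation, and female ones with a pair of active X chromosomes for lower methylation still. Neither methylation nor protein was measured here.

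Total counts ranged from 28936459 to 45489094 per library. Xist was at 5.43 to 7.83 CPM (depth-scaled counts, with library sizes adjusted by TMM) in untreated GFP libraries and at 747 to 918 CPM with Dox. In GFP Dox+Auxin libraries it was at 382.5 to 630 CPM, below all GFP Dox libraries. That log2 difference was -0.75 (SE 0.78, adjusted p = 0.462 by the edgeR test used below). The SE uses a spread shared by all groups, among them untreated SPOC, where replicate 2 stands apart. It does not measure the spread of the GFP libraries alone, whose SDs were 88.1 CPM with Dox and 109 CPM with Dox+Auxin. In untreated SPOC libraries Xist was at 1.04 to 1.69 CPM in 4 of 5, but at 178 CPM in replicate 2, against its label. Differences of the 7 genes from untreated SPOC libraries are therefore also given without that replicate. SPOC libraries held 308 to 458 CPM of Xist with Dox and 289.5 to 415 CPM with Dox+Auxin, and these groups overlapped. Spen RNA, which the degron does not target, was at 158 to 215 CPM without auxin in the GFP line and at 634 to 1164 CPM with it, replicate 4 being highest. SPOC cells had 326 to 369 CPM of it without auxin and 973 to 1242 CPM with it. Their construct carries the SPOC domain of SPEN, and whether its reads were counted to Spen was not tested. The 9 naive embryonic stem cell markers summed to 5091 to 6090 CPM per library, against 3.16 to 6.57 CPM for 6 primitive endoderm markers and 23.4 to 36.8 CPM for 6 fibroblast markers.

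Dnmt3b, Tet2 and Uhrf1 had lower RNA with Dox+Auxin than with Dox in both lines, and their RefSeq promoters (GRCm38.p6, 300 bases that end just past the start, 5′ to 3′ on the gene's strand) are shown for their CpG content, with each CpG in capitals. Dnmt3b has 1 listed promoter, at chr2:153649199-153649498 on the plus strand. Tet2 has 1, at chr3:133544341-133544640 on the minus strand. Uhrf1 has 2, and the second, at chr17:56304063-56304362 on the plus strand, is the CpG-rich one.
Dnmt3b: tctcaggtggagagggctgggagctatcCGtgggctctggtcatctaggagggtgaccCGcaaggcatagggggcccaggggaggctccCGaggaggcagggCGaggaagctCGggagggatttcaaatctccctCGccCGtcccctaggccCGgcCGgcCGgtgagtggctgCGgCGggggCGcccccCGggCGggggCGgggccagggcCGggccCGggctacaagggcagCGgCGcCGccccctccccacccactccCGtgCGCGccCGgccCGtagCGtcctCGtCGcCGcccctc
Tet2: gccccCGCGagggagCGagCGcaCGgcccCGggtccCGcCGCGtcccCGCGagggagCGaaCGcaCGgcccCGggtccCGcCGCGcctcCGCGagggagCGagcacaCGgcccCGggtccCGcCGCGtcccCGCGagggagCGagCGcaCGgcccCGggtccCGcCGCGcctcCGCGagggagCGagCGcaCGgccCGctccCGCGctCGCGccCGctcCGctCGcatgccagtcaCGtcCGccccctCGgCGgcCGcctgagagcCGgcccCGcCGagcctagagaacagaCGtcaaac
Uhrf1, second promoter: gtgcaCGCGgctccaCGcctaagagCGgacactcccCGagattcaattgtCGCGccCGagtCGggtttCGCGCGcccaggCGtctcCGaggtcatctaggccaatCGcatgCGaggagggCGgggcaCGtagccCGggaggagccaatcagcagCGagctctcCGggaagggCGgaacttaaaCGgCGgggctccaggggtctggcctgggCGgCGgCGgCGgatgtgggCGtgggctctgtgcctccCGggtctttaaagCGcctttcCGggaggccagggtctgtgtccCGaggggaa
The Dnmt3b window holds 30 CpG, more than 88.3% of the 32851 promoters in the table, whose median is 7. Tet2 holds 57 CpG, more than 99.8% of them, and the Uhrf1 window 33, more than 91.4%. On both strands, GGGCGG, the core of an SP factor box, occurs 4 times in the Dnmt3b window, 1 time in Tet2 and 3 times in Uhrf1, and 35.7% of all promoters hold it. GCGTG, the core recognised by the aryl hydrocarbon receptor, is not in the Dnmt3b or Tet2 windows, occurs 3 times in the Uhrf1 window, and is in 32.4% of promoters. TTTCGCGC, an E2F-type sequence, occurs 1 time in the Uhrf1 window, not in those of Dnmt3b and Tet2, and in 0.323% of all promoters. The other E2F-type sequences searched, TTTCCCGC (in 1.07% of promoters) and TTTGGCGC (0.514%), are in none of the 3 windows. None of these matches overlapped another. All 7 genes had at least 1 RefSeq promoter, Dnmt1, Dnmt3a and Dnmt3l having 3 each. CpG-rich windows were not particular to the 3 genes shown. Dnmt3a promoters 1 and 2 hold 46 and 47 CpG, with GGGCGG 6 and 7 times, and its promoter 3 holds 18. Dnmt1 promoter 3 holds 33 CpG, with TTTCGCGC and TTTGGCGC 1 time each, and its others 2 and 12. Tet1 holds 17 CpG, and the Dnmt3l promoters 6, 4 and 3.

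Compared per length (counts divided by the authors' size factor and by exon length in kb), Uhrf1 was the highest of the 7, with a mean of 5978 ± 650 (SD, n = 27 libraries) scaled counts per kb. Dnmt1 followed at 2144 ± 111, Dnmt3b at 1555 ± 501, Dnmt3l at 1087 ± 216 and Tet1 at 673 ± 89.9. Dnmt3a, at 343 ± 27.4, and Tet2, at 327 ± 61.3, were the lowest. These SDs span all treatment groups, and the order of the pair changed between groups. Mean scaled counts per kb were 360 for Dnmt3a and 233 for Tet2 in GFP Dox+Auxin, but 348 and 397 in GFP Dox. The genes differed in how far their group means moved. The highest group mean of CPM was 2.46 times the lowest for Dnmt3b, 1.7 times for both Dnmt3l and Tet2, 1.33 times for Uhrf1 and 1.29 times for Tet1. For Dnmt1 and Dnmt3a it was 1.12 times. All 7 genes passed the filter on low counts, and their counts per library ran from 1656 for Dnmt3l to 33831 for Uhrf1.

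**Figure D1:**
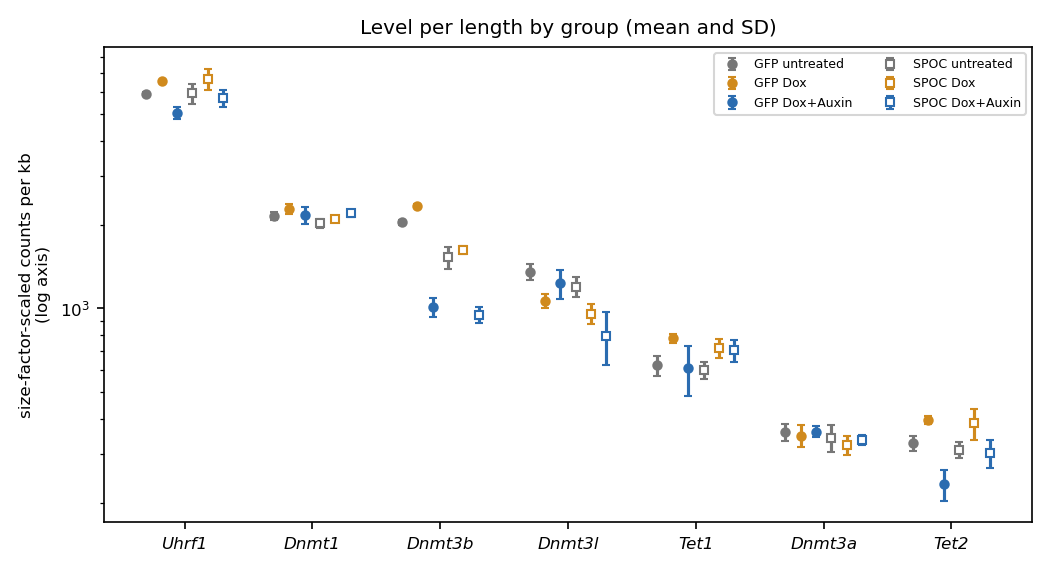
Size-factor-scaled counts per kb of exon (log axis) for the 7 genes, as mean and SD of each group; circles are GFP groups (n = 4) and squares SPOC groups (n = 5). Uhrf1 lies highest, Dnmt3a and Tet2 lowest, and the groups of Dnmt3b are the most spread.

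**Figure D2:**
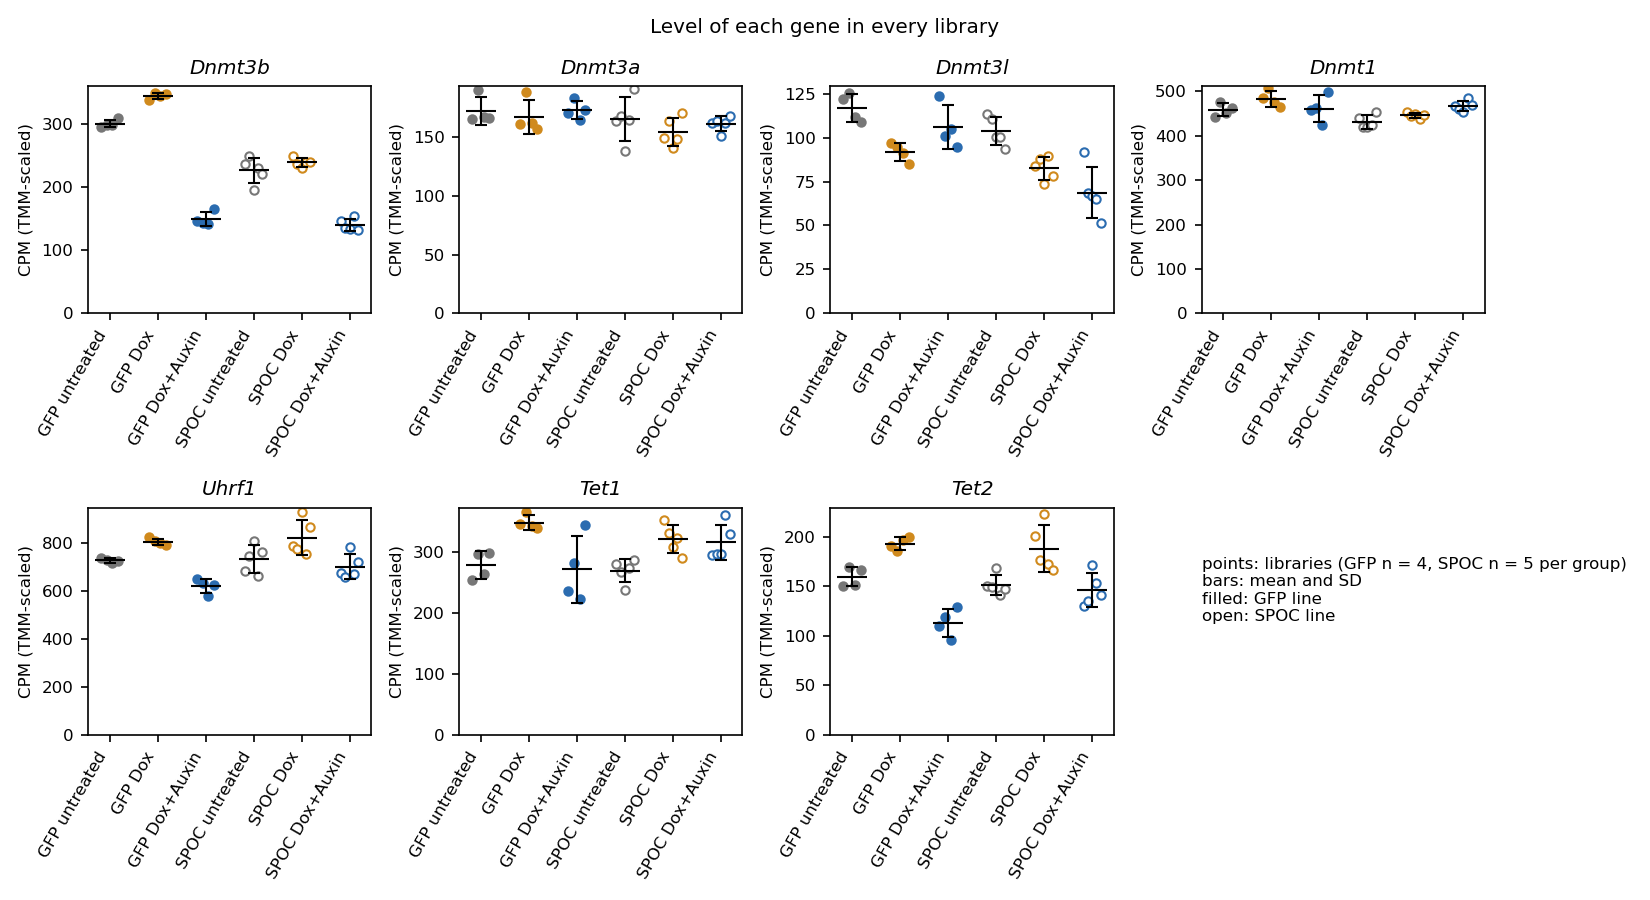
CPM of each gene in every library (points), with the mean and SD of each group (bars); the vertical axis starts at 0. The Dnmt3b Dox+Auxin libraries of both lines lie between 132 and 165 CPM, below all other libraries of that gene.

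Of the maintenance pair, Dnmt1 was nearly level. Its 27 libraries lay between 419 and 508 CPM, and in the order of group means, from 484 CPM (GFP Dox) to 432 CPM (untreated SPOC), each group overlapped the next. By the quasi-likelihood test of edgeR, with Benjamini-Hochberg adjusted p over 18363 genes, Dnmt1 RNA was higher in SPOC Dox+Auxin than in untreated SPOC libraries, by 0.11 on the log2 scale (SE 0.03, adjusted p = 0.00698), with overlapping libraries. Without SPOC untreated replicate 2 the difference was 0.11 (adjusted p = 0.0176). Dnmt1 was also lower in SPOC Dox than in GFP Dox, with a log2 difference of -0.12 (SE 0.03, adjusted p = 0.027) and no overlap. That call was lost without SPOC Dox replicate 2 (adjusted p = 0.0501) or 4 (0.0625) and without GFP Dox replicate 1 (0.0684) or 2 (0.135). In GFP Dox+Auxin against Dox the difference was -0.07 (adjusted p = 0.121), and it was called without GFP Dox+Auxin replicate 4, at -0.11 (adjusted p = 0.0136).

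Uhrf1 was lower with Dox+Auxin than with Dox in both lines. GFP libraries held 737, 730, 714 and 723 CPM untreated, 822, 805, 797 and 791 CPM with Dox, and 649, 631, 576 and 622 CPM with Dox+Auxin. SPOC libraries held 681, 746, 808, 661 and 762 CPM untreated, 786, 774, 929, 751 and 867 CPM with Dox, and 672, 657, 782, 668 and 720 CPM with Dox+Auxin. The 3 GFP groups did not overlap, while each SPOC group overlapped the others. In the GFP line Dox+Auxin against Dox gave a log2 difference of -0.38 (SE 0.06, adjusted p = 1.8e-05), and Dox+Auxin against untreated gave -0.23 (SE 0.06, adjusted p = 0.00483). The SPOC line gave -0.23 for Dox+Auxin against Dox (SE 0.06, adjusted p = 0.00225). The rise with Dox was called in SPOC cells, at 0.17 (SE 0.06, adjusted p = 0.0465), and missed the threshold in the GFP line, at 0.15 (SE 0.06, adjusted p = 0.099). With a replicate block in the fit the GFP rise was called, at 0.15 (adjusted p = 6.8e-05). The SPOC call was lost in 17 of the 27 fits that left out 1 library, with adjusted p from 0.0502 to 0.159, SPOC untreated replicate 2 among them (0.18, adjusted p = 0.0519). Over the alternatives that left out no single library, by edgeR or DESeq2, adjusted p for the SPOC rise ran from 5e-06 to 0.151.

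The largest change was in Dnmt3b, the enzyme that sets new methylation. GFP libraries held 295, 299, 298 and 309 CPM untreated, 337, 348, 343 and 346 CPM with Dox, and 145, 143, 142 and 165 CPM with Dox+Auxin. SPOC libraries held 236, 249, 196, 229.6 and 220 CPM untreated, 249, 237, 229, 239 and 239 CPM with Dox, and 145, 135, 134, 153 and 132 CPM with Dox+Auxin. In both lines every Dox+Auxin library was below every library without auxin, and in the GFP line the untreated and Dox groups were also apart. Dox+Auxin left Dnmt3b at 43.3% of its Dox level in the GFP line (log2 difference -1.21, SE 0.05, adjusted p = 2.6e-16). For SPOC cells the level was 58.6% (log2 difference -0.77, SE 0.05, adjusted p = 1.2e-12). Against untreated cells the log2 differences were -1.01 (adjusted p = 3.9e-14) and -0.69 (adjusted p = 1.1e-11). The latter was -0.65 (adjusted p = 2.5e-11) without SPOC untreated replicate 2.

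The fall of Dnmt3b differed between the lines. The interaction of line with Dox+Auxin against Dox was 0.44 on the log2 scale (SPOC minus GFP, SE 0.07, adjusted p = 0.00035), and that with Dox+Auxin against untreated was 0.32 (SE 0.07, adjusted p = 0.0163), or 0.36 (adjusted p = 0.00285) without SPOC untreated replicate 2. The lines also started apart. Untreated SPOC libraries were below all untreated GFP libraries (log2 difference -0.41, SE 0.05, adjusted p = 2.1e-05), at -0.45 (adjusted p = 8.7e-06) without SPOC replicate 2. With Dox the log2 difference between lines was -0.53 (SE 0.05, adjusted p = 1.1e-07). With Dox+Auxin the libraries of the lines overlapped, at a difference of -0.09 (SE 0.05, adjusted p = 0.221), which was -0.04 (adjusted p = 0.664) without GFP Dox+Auxin replicate 4. In the GFP line Dox alone raised Dnmt3b by 0.20 (SE 0.05, adjusted p = 0.00765). The Dox difference in SPOC cells was 0.08 (SE 0.05, adjusted p = 0.322), and the lines did not differ past the threshold in it (interaction -0.12, SE 0.07, adjusted p = 0.746). Without SPOC untreated replicate 2 these were 0.12 (adjusted p = 0.101) and -0.08 (adjusted p = 0.924).

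Dnmt3a, the other catalytic enzyme of that pair, showed no called difference in any of the 12 comparisons of the main fit, which had no replicate block. With a replicate block it was lower in SPOC Dox than in untreated SPOC libraries (-0.09, adjusted p = 0.0247). It was then also lower in SPOC than in GFP cells with Dox (-0.15, adjusted p = 0.00673) and with Dox+Auxin (-0.14, adjusted p = 0.00721). For these comparisons between lines the block joined equal replicate numbers of both lines, a pairing that was not checked. Its libraries ran from 139 to 191 CPM, and all groups overlapped their neighbours in the order of means, from 173 CPM in GFP Dox+Auxin to 154 CPM in SPOC Dox. Its Dox+Auxin against Dox difference was 0.05 (SE 0.07, adjusted p = 0.621) in the GFP line and 0.06 (SE 0.07, adjusted p = 0.518) in SPOC cells. The counts are per gene, so transcript forms of Dnmt3a or Dnmt3b cannot be separated.

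Dnmt3l, the cofactor without catalytic activity, was lower with Dox. GFP libraries held 122, 126, 112 and 109 CPM untreated, 96.9, 94.7, 91.1 and 84.8 CPM with Dox, and 124, 101, 105 and 94.4 CPM with Dox+Auxin. SPOC libraries held 113, 111, 100.1, 101 and 93.7 CPM untreated, 83.8, 87.6, 73.8, 89.5 and 78.3 CPM with Dox, and 92.0, 68.6, 66.6, 65.1 and 51.3 CPM with Dox+Auxin. Untreated and Dox groups were apart in both lines. In the GFP line the Dox difference was -0.35 (SE 0.12, adjusted p = 0.0336). It missed the threshold, at -0.36 to -0.31, without GFP untreated replicate 1 (adjusted p = 0.0802) or 2 (0.0995) or GFP Dox replicate 2 (0.0526), 3 (0.0696) or 4 (0.101). For SPOC cells it was -0.33 (SE 0.10, adjusted p = 0.0398). It missed the threshold in 7 of 27 fits without 1 library. These left out SPOC untreated replicate 1 (adjusted p = 0.107), 2 (0.0795), 3 (0.0566) or 4 (0.0591), or SPOC Dox replicate 1 (0.0636), 3 (0.107) or 5 (0.0837).

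With Dox+Auxin, Dnmt3l was lower in SPOC than in GFP cells. All SPOC Dox+Auxin libraries were below all GFP ones (log2 difference -0.63, SE 0.11, adjusted p = 0.00027) and below all untreated SPOC libraries (-0.59, SE 0.11, adjusted p = 0.00013, and -0.56, adjusted p = 0.00055, without SPOC untreated replicate 2). In the GFP line the difference from untreated was -0.14 (SE 0.11, adjusted p = 0.358). Against Dox the SPOC line gave -0.26 (SE 0.11, adjusted p = 0.06) and the GFP line 0.21 (SE 0.12, adjusted p = 0.153). The interaction of these was -0.47 (SE 0.16, adjusted p = 0.0678). SPOC Dox+Auxin replicate 1, the highest of its group, and GFP Dox+Auxin replicate 4, the lowest, bear on this. Without SPOC Dox+Auxin replicate 1 the SPOC difference from Dox was -0.39 (adjusted p = 0.00118) and the interaction -0.60 (adjusted p = 0.0034). Without GFP Dox+Auxin replicate 4 the interaction was -0.52 (adjusted p = 0.0442). The SPOC difference was also called without SPOC Dox replicate 3, at -0.30 (adjusted p = 0.0488). The interaction against untreated was -0.45 (adjusted p = 0.124), and -0.58 (adjusted p = 0.0115) without SPOC Dox+Auxin replicate 1. Without SPOC untreated replicate 2 it was -0.42 (adjusted p = 0.159).

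**Figure D3:**
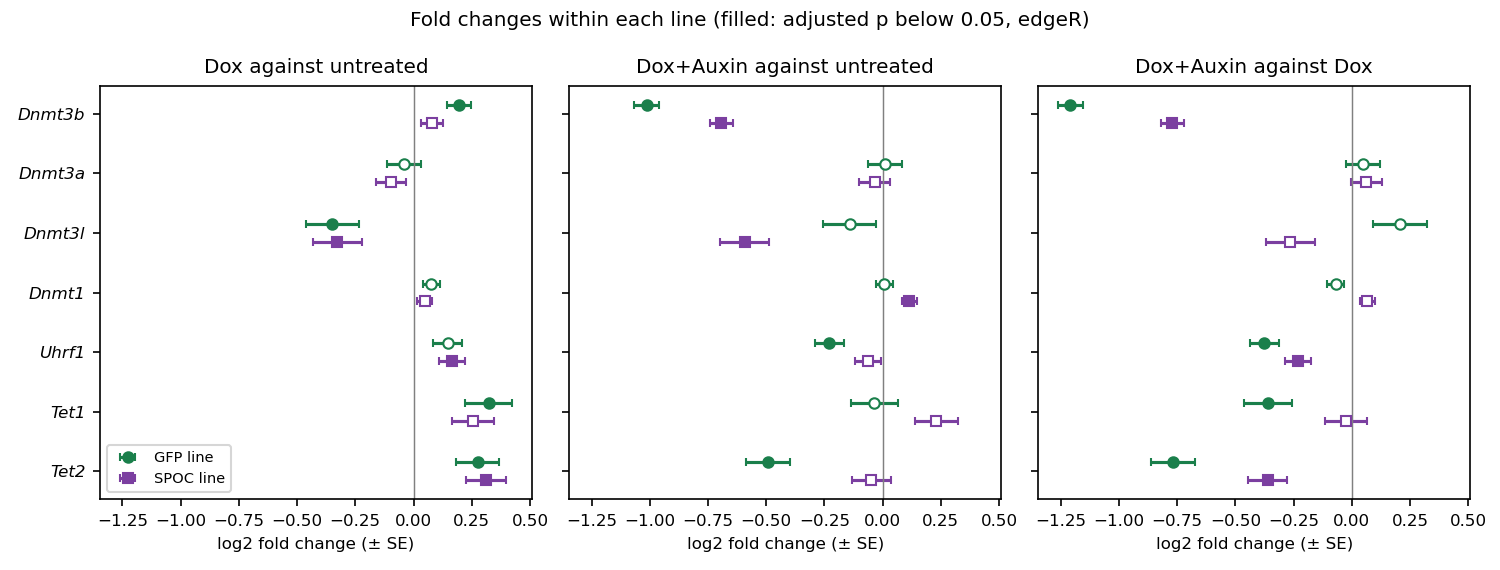
Log2 fold changes with standard errors for the 7 genes in the 3 comparisons within each line, GFP as circles and SPOC as squares; filled symbols have an adjusted p below 0.05. Dnmt3b with Dox+Auxin lies farthest from 0 in both lines, at -1.21 and -0.77 against Dox.

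Tet2, which lacks the CXXC domain that TET1 has, rose with Dox and fell with Dox+Auxin against Dox in both lines. GFP libraries held 151, 169, 152 and 167 CPM untreated, 191, 186, 197 and 200 CPM with Dox, and 111, 119, 95.4 and 129 CPM with Dox+Auxin. SPOC libraries held 151, 149.7, 169, 142 and 147 CPM untreated, 201, 177, 224, 173 and 166 CPM with Dox, and 130.3, 135, 172, 154 and 142 CPM with Dox+Auxin. The GFP groups were apart from each other, and the SPOC groups overlapped, replicate 3 being the highest in each of them. Against Dox, Dox+Auxin gave -0.77 (SE 0.09, adjusted p = 4.3e-07) in the GFP line and -0.36 (SE 0.08, adjusted p = 0.00195) in SPOC cells. Their interaction was 0.41 (SE 0.13, adjusted p = 0.0471). It missed the threshold in 21 of 27 fits that left out 1 library, with adjusted p from 0.0519 to 0.105. SPOC untreated replicate 2 was among them (0.41, adjusted p = 0.0557). Over the alternatives that left out no single library, by edgeR or DESeq2, adjusted p for this interaction ran from 0.00528 to 0.093.

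The rise of Tet2 with Dox was 0.28 (SE 0.09, adjusted p = 0.0375) in the GFP line and 0.31 (SE 0.08, adjusted p = 0.0147) in SPOC cells. The latter was 0.31 (adjusted p = 0.0265) without SPOC untreated replicate 2 and 0.24 (adjusted p = 0.0548) without SPOC Dox replicate 3. The GFP rise missed the threshold without GFP untreated replicate 1 (adjusted p = 0.103) or 3 (0.0977), or GFP Dox replicate 1 (0.0643), 3 (0.0815) or 4 (0.0941). Against untreated, Tet2 fell with Dox+Auxin in the GFP line by 0.49 on the log2 scale (SE 0.09, adjusted p = 0.00021), where no libraries overlapped, and was at -0.05 (SE 0.08, adjusted p = 0.701) in SPOC cells. The interaction was 0.44 (SE 0.13, adjusted p = 0.0634). Without SPOC untreated replicate 2 these were -0.05 (adjusted p = 0.731) and 0.44 (adjusted p = 0.0732). The interaction passed the threshold without SPOC untreated replicate 3 (adjusted p = 0.0494), SPOC Dox replicate 3 (0.0391), SPOC Dox+Auxin replicate 1 (0.0385) or GFP Dox+Auxin replicate 4 (0.0229). With Dox+Auxin, Tet2 was higher in SPOC cells than in the GFP line by 0.37 (SE 0.09, adjusted p = 0.00436), with no overlap.

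Uhrf1 was also higher there in SPOC cells, by 0.18 (SE 0.06, adjusted p = 0.0313), with no overlap. That call was lost without SPOC Dox+Auxin replicate 3 (adjusted p = 0.0961) or 5 (0.0694) and without GFP Dox+Auxin replicate 2 (0.0507), 3 (0.115) or 4 (0.0547). In this fit the Uhrf1 interactions of line with Dox+Auxin were 0.16 against untreated (SE 0.08, adjusted p = 0.308) and 0.14 against Dox (SE 0.08, adjusted p = 0.324), the former being 0.17 (adjusted p = 0.305) without SPOC untreated replicate 2. With a replicate block both interactions were called (adjusted p = 0.00267 and 0.00397).

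Tet1, which carries a CXXC domain that binds unmethylated CpG, was raised by Dox in GFP cells. GFP libraries held 253, 297, 263 and 299 CPM untreated, 345, 365, 342 and 339 CPM with Dox, and 236, 282, 222 and 344 CPM with Dox+Auxin. SPOC libraries held 279.8, 267, 238, 273 and 286 CPM untreated, 352, 331, 307, 323 and 290.3 CPM with Dox, and 295, 297, 297, 359.6 and 329 CPM with Dox+Auxin. Untreated and Dox libraries were apart in both lines, and GFP Dox+Auxin replicate 4 alone of its group lay among the GFP Dox libraries. The Dox difference was 0.32 (SE 0.10, adjusted p = 0.0245) in the GFP line and 0.26 (SE 0.09, adjusted p = 0.066) in SPOC cells. The GFP call was lost without GFP untreated replicate 1 (adjusted p = 0.0831) or 3 (0.0696) or GFP Dox replicate 2 (0.0659). The SPOC difference was 0.26 (adjusted p = 0.095) without SPOC untreated replicate 2, and it passed without GFP Dox+Auxin replicate 3 (0.26, adjusted p = 0.0406) or 4 (0.26, adjusted p = 0.0151), which enter it only through the shared spread.

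Dox+Auxin against Dox gave -0.36 (SE 0.10, adjusted p = 0.00524) for Tet1 in the GFP line and -0.02 (SE 0.09, adjusted p = 0.873) in SPOC cells. Their interaction was 0.34 (SE 0.14, adjusted p = 0.139), and 0.47 (adjusted p = 0.00806) without GFP Dox+Auxin replicate 4. Without that library Tet1 was also higher in SPOC than in GFP cells with Dox+Auxin, by 0.35 (adjusted p = 0.00272), against 0.22 (SE 0.10, adjusted p = 0.104) with it. The interaction against untreated was 0.27 (adjusted p = 0.313) with it and 0.41 (adjusted p = 0.0346) without it. Without SPOC untreated replicate 2 it was 0.27 (adjusted p = 0.345). For Tet1 in SPOC cells the difference of Dox+Auxin from untreated was 0.23 (SE 0.09, adjusted p = 0.0546), and 0.23 (adjusted p = 0.0819) without SPOC untreated replicate 2. It passed without GFP Dox+Auxin replicate 1 (adjusted p = 0.0468), 3 (0.0333) or 4 (0.012).

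Counted over the 7 genes, 3 were higher (10.1% of all genes tested) and 1 lower (10.8%) with Dox in GFP cells, where 20.9% of all genes were called in either direction. For the SPOC line 2 were higher (6.16% of all genes) and 1 lower (7.33%), with 13.5% of all genes called in either direction. Without SPOC untreated replicate 2 the SPOC count was 1 higher, Tet2, and 0 lower. The GFP count fell from 4 called to 1 without GFP untreated replicate 1, and to 2 without GFP untreated replicate 3 or GFP Dox replicate 2, 3 or 4. The SPOC count fell from 3 to 1 without SPOC untreated replicate 1 or 4 or SPOC Dox replicate 5, and to 0 without SPOC Dox replicate 3.

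Against Dox, Dox+Auxin lowered 4 of 7 genes in the GFP line (22.9% of all genes) and raised 0 (24.7%), with 47.6% called in either direction. In SPOC cells it lowered 3 of 7 (15.4%) and raised 0 (16.6%), with 32% called. Against untreated, 3 were lower (18.4%) and 0 higher (19.9%) in the GFP line, with 38.2% called. In SPOC cells 2 were lower (16.6%) and 1 higher (16.7%), with 33.3% called. These shares of called genes are high enough that the number of members called in either direction is close to the background. Against Dox each called member was lower in both lines, a one-sidedness that was not tested over the 7 genes. Dnmt3b had the smallest adjusted p of the 7 in all 4 of these comparisons. Between the untreated lines 1 gene was lower in SPOC (5.77% of all genes) and 0 higher (5.79%), with 11.6% called in all. With Dox 2 were lower (5.33%) and 0 higher (5.36%), with 10.7% called. With Dox+Auxin 2 were higher (11.2%) and 1 lower (13.5%), with 24.6% called. The interaction with Dox+Auxin against untreated had 1 gene with a higher value in SPOC (1.2% of all genes) and 0 lower (1.2%), with 2.4% called. That with Dox+Auxin against Dox had 2 higher (3.49%) and 0 lower (4.65%), with 8.14% called. The Dox interaction had 0 of 7 called by edgeR in either direction (0.24% of all genes, 0.229% higher and 0.0109% lower), 0 at an unadjusted p below 0.05, and 0 by DESeq2.

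Some of these calls depended on how the counts were fitted, and those gained with a replicate block are listed in the last section. Without the low-count filter 1 of the 7 genes was called with Dox in each line, Dnmt3b in GFP and Tet2 in SPOC cells. For GFP Dox, alternatives that left out no single library (edgeR or DESeq2) gave adjusted p from 3.7e-05 to 0.0947 for Tet2. The same range was 0.00049 to 0.0624 for Tet1 and 0.00018 to 0.0714 for Dnmt3l. With only the groups compared in the fit, adjusted p was 0.0685 for the Dnmt3b interaction against untreated, 0.0554 for Tet1 in GFP Dox+Auxin against Dox, 0.093 for the Tet2 interaction and 0.151 for Uhrf1 in SPOC Dox. That fit called Uhrf1 in GFP Dox (adjusted p = 0.00019) and Tet1 in SPOC Dox (0.0111) and SPOC Dox+Auxin against untreated (0.0134), the latter pair also by DESeq2 (0.0171 and 0.0203). DESeq2 also called Dnmt3l in SPOC Dox+Auxin against Dox (0.0483), its interaction (0.0381) and the Tet2 interaction against untreated (0.00985). Without the filter adjusted p was 0.0838 for the Tet2 interaction and 0.0932 for Uhrf1 between lines with Dox+Auxin.

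The other genes of the pathway were read by role, with all differences on the log2 scale. Comparisons with Dox and with Dox+Auxin share the Dox libraries, so a fall in one and a rise in the other are not separate observations. The counts below stand beside the shares of all genes called in either direction. These were 20.9% (GFP) and 13.5% (SPOC) with Dox, and 47.6% and 32% with Dox+Auxin against Dox. Median log2 differences over all genes tested lay between -0.01 and 0.01 in each comparison.

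Of 13 genes for oxidation, base removal and their recruitment, Dox lowered 5 and raised 0 in the GFP line (median -0.21), and lowered 5 and raised 1 in SPOC cells (median -0.11), also without SPOC untreated replicate 2. Gadd45a, a stress-induced gene linked to demethylation, fell by 0.60 (SE 0.06, adjusted p = 5.8e-09) in GFP cells and by 0.39 (SE 0.06, adjusted p = 7e-06) in SPOC cells. Tet3, the third TET enzyme, fell by 0.59 (SE 0.09, adjusted p = 6e-06) in GFP and by 0.37 (SE 0.08, adjusted p = 0.00144) in SPOC cells while Tet2 rose in both. The X-linked Ogt, whose product binds TET proteins, fell by 0.35 (adjusted p = 0.00131) and by 0.34 (adjusted p = 0.00087). Tdg, the glycosylase that removes oxidised bases, fell by 0.21 (adjusted p = 0.00017) and by 0.11 (adjusted p = 0.0274). With Dox+Auxin against Dox, 8 rose and 1 fell in the GFP line (median 0.20), and 5 rose and 1 fell in SPOC cells (median 0.04). Gadd45a rose by 0.96 (adjusted p = 1.3e-13) and by 0.47 (adjusted p = 1.2e-07), and Neil1, another glycosylase, fell by 0.41 (adjusted p = 0.00057) and by 0.29 (adjusted p = 0.00701).

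Among 9 maintenance partners, 2 rose and 5 fell with Dox+Auxin against Dox in GFP cells (median -0.10), and 2 rose and 1 fell in SPOC cells (median 0.02). Uhrf2, the paralogue of Uhrf1, rose by 0.73 (SE 0.06, adjusted p = 1.2e-11) in GFP and by 0.55 (SE 0.05, adjusted p = 1.1e-09), opposite in sign to Uhrf1. Cdca7, which works with the remodeller Hells, rose by 0.22 (adjusted p = 1.3e-05) and by 0.15 (adjusted p = 0.00097). Trim28, a corepressor at methylated imprints, fell by 0.28 (adjusted p = 1.6e-09) and by 0.14 (adjusted p = 5.5e-05). With Dox, 3 rose and 1 fell in the GFP line and 0 rose and 1 fell in SPOC cells. Uhrf2 fell by 0.18 in each (adjusted p = 0.0172 and 0.0167).

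Of 8 de novo partners, Dox+Auxin against Dox raised 2 and lowered 1 in each line, where 47.6% (GFP) and 32% (SPOC) of all genes were called, so the list's count is near the background. Nsd2, a histone H3 lysine methyltransferase, rose by 0.46 (adjusted p = 3.1e-09) in the GFP line and by 0.37 (adjusted p = 9.3e-08) in SPOC cells. Kdm1b, a histone demethylase needed for maternal imprints, rose by 0.24 (adjusted p = 0.00014) and by 0.29 (adjusted p = 5.9e-06). Dppa4 fell by 0.19 (adjusted p = 0.00039) and by 0.10 (adjusted p = 0.0419). With Dox, 0 rose and 1 fell in the GFP line, and 1 rose and 1 fell in SPOC cells, Nsd2 being lower in both, by 0.18 (adjusted p = 0.00835) and by 0.19 (adjusted p = 0.00232).

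The list of 4 regulators of Dnmt3 genes held the X-linked Dusp9, a MAPK phosphatase tied to low methylation in female embryonic stem cells. Dusp9 fell with Dox by 0.71 (SE 0.07, adjusted p = 9.9e-09) in the GFP line and by 0.53 (SE 0.06, adjusted p = 5.8e-07) in SPOC cells. With Dox+Auxin against Dox it rose by 0.81 (SE 0.07, adjusted p = 3.1e-10) in GFP and by 0.44 (SE 0.06, adjusted p = 3.4e-06). Prdm14, a repressor of Dnmt3b in embryonic stem cells, rose with Dox+Auxin against Dox by 0.14 (adjusted p = 0.0029) and by 0.22 (adjusted p = 8.5e-06). Zfp281 rose by 0.15 (adjusted p = 0.00582) with Dox and fell by 0.20 (adjusted p = 9.9e-05) with Dox+Auxin against Dox in GFP cells. In all, Dox raised 1 and lowered 1 of 4 in the GFP line and lowered 1 in SPOC cells, and Dox+Auxin against Dox raised 2 and lowered 1, and raised 2 and lowered 0.

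Of 8 readers of methylated CpG, 3 fell with Dox in GFP cells and 2 in SPOC cells (3 without SPOC untreated replicate 2), and 0 rose. The X-linked Zbtb33 fell by 0.88 (adjusted p = 1.6e-11) and by 0.49 (adjusted p = 4.8e-07). With Dox+Auxin against Dox, 3 rose and 2 fell in the GFP line, and 3 rose and 1 fell in SPOC cells. Mbd1 rose by 0.24 (adjusted p = 7.7e-06) and by 0.14 (adjusted p = 0.00378). Of 12 genes of methyl donor and cofactor metabolism, Dox raised 1 in each line, Mat2b by 0.16 in the GFP line (adjusted p = 0.00181) and Mthfd1 by 0.07 in SPOC cells (adjusted p = 0.0421). Dox+Auxin against Dox lowered 5 in the GFP line and raised 0, and raised 1 and lowered 1 in SPOC cells. Shmt2, of mitochondrial one-carbon metabolism, fell by 0.34 (adjusted p = 8.9e-07) and by 0.28 (adjusted p = 1e-05).

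Of 14 germline genes known to be silenced by promoter methylation, Dox+Auxin against Dox raised 4 and lowered 2 in the GFP line (1 without GFP Dox+Auxin replicate 4), and raised 3 and lowered 1 in SPOC cells. These counts are no higher than the shares of all genes called, 47.6% and 32%. Hormad1, a meiotic chromosome protein, rose by 0.42 (adjusted p = 9.9e-08) and by 0.34 (adjusted p = 1.7e-06). Tex19.1 rose by 0.41 (adjusted p = 5.1e-06) and by 0.30 (adjusted p = 0.00013). Mael, of the piRNA pathway, fell by 0.67 (adjusted p = 4.4e-07) and by 0.70 (adjusted p = 1e-07). With Dox, 0 rose and 1 fell in the GFP line, the X-linked Taf7l, by 0.83 (adjusted p = 3.2e-06), and 0 rose and 2 fell in SPOC cells (3 without SPOC untreated replicate 2).

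**Figure D4:**
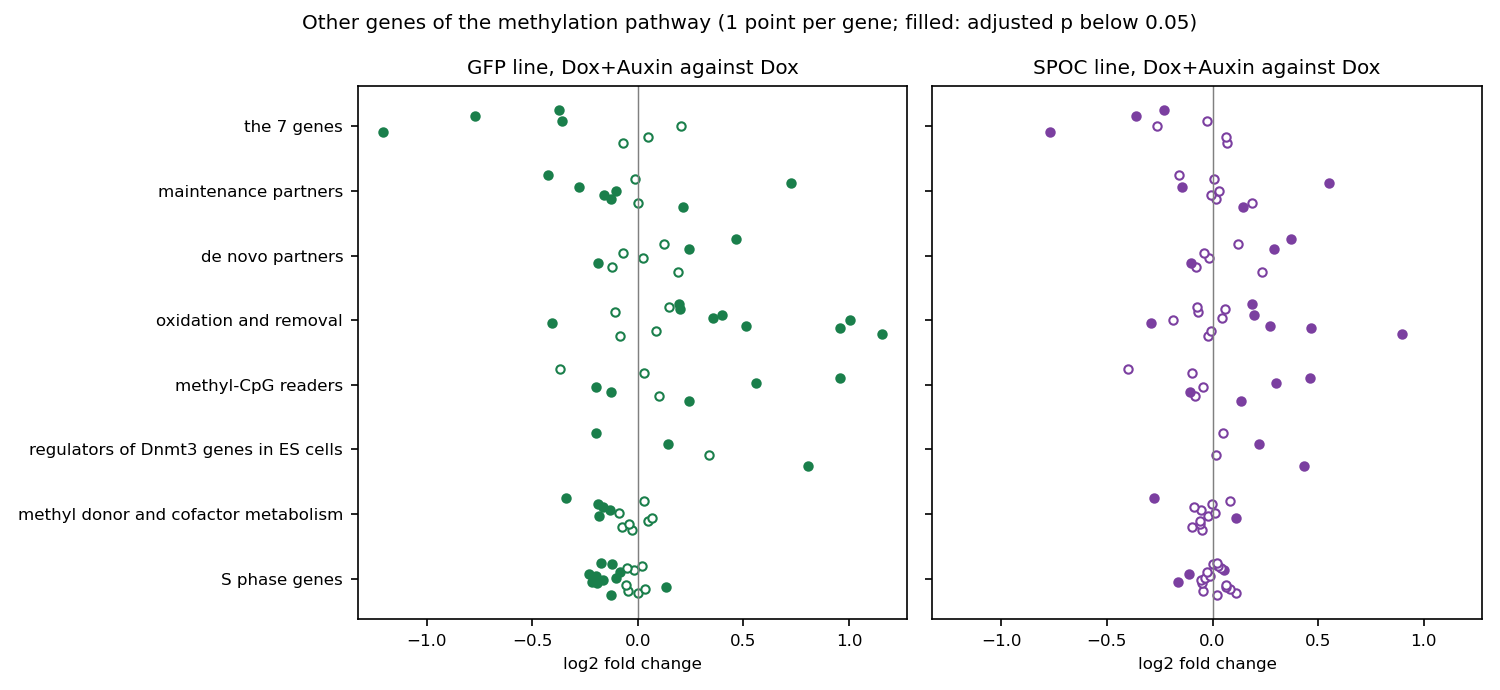
Log2 fold change of Dox+Auxin against Dox for the 7 genes and for 7 lists of other genes, 1 point per gene, GFP line left and SPOC line right; filled points have an adjusted p below 0.05. The lowest point among the 7 genes is Dnmt3b in both lines (-1.21 and -0.77), and the highest maintenance partner is Uhrf2 (0.73 and 0.55).

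S phase is the phase in which Dnmt1 and Uhrf1 are known to be most used. Of 18 of its genes, Dox raised 5 (10.1% of all genes rose) and lowered 1 (10.8% fell) in GFP cells, and Dox+Auxin against Dox raised 1 (24.7% of all genes rose) and lowered 10 (22.9% fell; median -0.09), among them Mcm5 (-0.23, adjusted p = 2.5e-06) and Mcm4 (-0.20, adjusted p = 5.2e-06). Their summed level was 5441 to 5524 CPM with Dox and 4987 to 5182 CPM with Dox+Auxin in GFP libraries. In SPOC cells Dox raised 0 (6.16% of all genes rose) and lowered 2 (7.33% fell), or 3 without SPOC untreated replicate 2. Dox+Auxin against Dox raised 1 (16.6% of all genes rose) and lowered 2 (15.4% fell) in SPOC cells (median 0.01). The S phase genes summed to 5119 to 5506 CPM with Dox and 5090 to 5388 CPM with Dox+Auxin there. Their part in the Uhrf1 values was not tested.

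Counts of called cell state markers stand beside the same shares of all genes called in either direction. These were 47.6% (GFP) and 32% (SPOC) with Dox+Auxin against Dox, and 20.9% and 13.5% with Dox against untreated. Naive markers summed to 5715 to 5885 CPM with Dox and 5091 to 5383 CPM with Dox+Auxin in GFP libraries, where 1 of 9 rose (2 without GFP Dox+Auxin replicate 4) and 6 fell. SPOC sums were 5641 to 6090 and 5338 to 5803 CPM, and 1 rose and 4 fell. All 7 two-cell-like markers fell in both lines, their sum going from 19.7 to 28.5 CPM down to 6.50 to 7.78 CPM in the GFP line, and from 10.6 to 18.9 down to 4.21 to 5.47 CPM in SPOC cells. These genes have near-identical copies, so their single values are uncertain.

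Trophoblast markers summed to 62.9 to 68.3 CPM with Dox and 149 to 158 CPM with Dox+Auxin in the GFP line. SPOC sums were 53.2 to 77.8 and 86.6 to 144 CPM. Of 4 tested, 3 rose in the GFP line, with Cdx2 at 1.39 (adjusted p = 5.9e-06), and 2 in SPOC cells. Of 5 formative and primed markers, 3 fell with Dox in GFP cells and 4 in SPOC cells, their sums going from 133 to 155 down to 77.9 to 96.5 CPM and from 131 to 157 down to 79.4 to 99.3 CPM. With Dox+Auxin against Dox these markers were mixed, as 2 rose and 1 fell in the GFP line, and 1 rose and 2 fell in SPOC cells. Of 5 neural markers, 2 rose and 2 fell with Dox+Auxin against Dox in each line, with a median of -0.14 in the GFP line and 0.21 in SPOC cells. Of 3 mesoderm markers tested, 2 rose in the GFP line (3 without GFP Dox+Auxin replicate 4) and 0 in SPOC cells, of 5 primitive endoderm markers 0 were called in either line, and of 3 fibroblast markers 3 fell in the GFP line (2 without that replicate) and 1 in SPOC cells. In these bulk libraries fewer cells of a type and less RNA per cell cannot be told apart, and the part of these shifts in the Dnmt3b, Tet2 and Dnmt3l values was not tested.

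Across all 27 libraries and among 12356 named genes averaging 1 CPM or more, the pattern most like Dnmt3b on the log2 CPM scale was that of Bag3 (Pearson r 0.960), then Emp1 (0.958) and Myo1c (0.956). For Tet2 the nearest were Bicral (0.953), Fnbp1l (0.945) and Qk (0.940). For Uhrf1 they were Hap1 (0.935), Tmem253 (0.931) and Ccdc77 (0.924). Rev3l (0.943), Zfp568 (0.913) and Fndc3a (0.908) were nearest to Tet1, and Gem (0.927), Egln3 (0.927) and Pvr (0.920) to Dnmt3l. The nearest to the level genes were less alike, Numa1 for Dnmt1 (0.893) and Tango6 for Dnmt3a (0.794). Among the 7 genes themselves the closest pair was Uhrf1 and Tet2 (r 0.886), and Dnmt3a and Dnmt3b had an r of 0.064. The libraries share treatment groups and replicate numbers, so these values describe the pattern over groups and are given with no p.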

How the data were processed

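RNA of 27 libraries was analysed from 1 table deposited by the authors. Its raw counts per gene were used for all tests. Per the file headers other columns hold RPKM; for 93.3% of 19571 genes compared, and for all 7 members, this deposited signal equals the count divided by a size factor and by exon length in kb (relative tolerance 1e-06), and it served only for levels per length. Columns per allele were left out, since 0 of 27 libraries' allelic sums matched their own total best. Tools listed by the submitters' processing notes, with no role, are featureCounts, DESeq2 1.18.1, Picard 2.18.2, STAR 2.5.3a and Trim Galore 0.4.4, and the build is mm10. Annotation and strand setting: not given in the sources used here. Of the identifiers, 53620 were in GENCODE M21.

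Counts were filtered (filterByExpr, 18363 genes), scaled by TMM and fitted in 1 model over all groups with edgeR 4.0.16 in R 4.3.3 (robust quasi-likelihood test), and genes with a Benjamini-Hochberg adjusted p below 0.05 were called. The steps were tested on simulated data. Members, lists and comparisons were chosen with earlier results of these data known. List examples are called genes with the smallest adjusted p (1 that the rule names is not reported here), and likeness uses log2 CPM with a prior count of 2. Alternatives were DESeq2 1.42.0, DESeq2 size factors, no filter, a block, only the groups compared, and each library left out. List counts without SPOC untreated replicate 2 or GFP Dox+Auxin replicate 4 were chosen after seeing the data. Two-sided tests measure the spread between these libraries. The closest pair, SPOC Dox+Auxin replicates 1 and 2, still differed by more than sampling noise (chi-square per gene 1.76).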

Additional observations from a re-analysis of the deposited data

Results flagged for a closer look

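Dnmt3a stood out in 2 GFP libraries of the same replicate number. It was at 189.7 CPM in untreated replicate 2 and at 188.3 CPM in Dox replicate 2, each far from the other 3 libraries of its group. Dnmt3b in GFP Dox+Auxin replicate 4, at 164.9 CPM, was likewise far above the other 3. In 42 such groups of values tested, 3 stood out, where chance gives about 1 in 20.

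The Dnmt3b response to Dox+Auxin differed between the lines by a test of the difference, at 0.3204 against untreated and 0.4372 against Dox (log2, SPOC minus GFP). The Tet2 response to Dox+Auxin against Dox differed by 0.4088 (adjusted p = 0.0471 by edgeR), a call lost under 23 of the 32 alternatives and kept under 9. The Dnmt3b difference against untreated lost its call under 1 of the 32.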

How the results depend on the processing

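Of 29 called results for the 7 genes, 18 kept their call under all 32 alternatives, 11 lost it under at least 1, and 0 reversed. Dnmt3b kept its calls except the interaction of line with Dox+Auxin against untreated, at 0.3212 (adjusted p = 0.0685) with only the groups compared. Without the low-count filter the number of the 7 genes called was 1 for GFP Dox against untreated, 1 for SPOC Dox against untreated and 1 for the interaction with Dox+Auxin against Dox, which was also 1 with only the groups compared. The interaction with Dox+Auxin against untreated had 2 of the 7 and 830 genes in all by DESeq2, and 0 and 211 with only the groups compared; the Dox interaction had 95 genes by DESeq2. With a replicate block, the 7 genes had 5 called for SPOC Dox against untreated, 5 for SPOC Dox+Auxin against untreated, 2 between untreated lines, 4 for the interaction against untreated and 5 for that against Dox. All genes called with the block were 4145 for SPOC Dox against untreated and 294, 2006 and 3317 for the interactions with Dox, with Dox+Auxin compared with untreated, and with Dox+Auxin compared with Dox. Calls gained with the block were Uhrf1 in GFP Dox (0.1466, adjusted p = 6.8e-05), in SPOC Dox+Auxin against untreated (-0.0635, 0.031) and in its interactions against untreated (0.1660, 0.00267) and Dox (0.1468, 0.00397); Dnmt3a in SPOC Dox (-0.0936, 0.0247) and between lines with Dox (-0.1505, 0.00673) and Dox+Auxin (-0.1353, 0.00721); Tet1 in SPOC Dox (0.2573, 0.0319) and Dox+Auxin against untreated (0.2310, 0.0318); Dnmt3l in SPOC Dox+Auxin against Dox (-0.2798, 0.0105) and both interactions (-0.4589, 0.0194, and -0.4837, 0.00955); Tet2 in the interaction against untreated (0.4447, 0.00676); and Dnmt1 between untreated lines (-0.0952, 0.0459) and in the interaction against Dox (0.1371, 0.0205). Between lines the block joined equal replicate numbers of both lines, a pairing that was not checked. In the other comparisons it was nested within each line. The main fit had no replicate block. Same-numbered libraries correlated above 0.1 in 10 of 15 SPOC pairs (-0.0454 to 0.462) and 6 of 12 GFP pairs (-0.116 to 0.214). The median r was 0.169 in SPOC and 0.0964 in GFP pairs, against -0.0497 and -0.0262 for pairs of other numbers. Of 27 libraries, 23 were most like one of their own number, a likeness that the main fit leaves out. Small uncalled values changed sign: without the filter Dnmt1 and Dnmt3a in GFP Dox+Auxin against untreated were -0.0081 and -0.0066, and Uhrf1 between untreated lines was -0.0103, and -0.0075 with the block. With 1 library left out at a time, the 7 genes had 1 to 4 called for GFP Dox, 0 to 4 for SPOC Dox, 1 to 2 between lines with Dox, 1 to 3 for the interaction against untreated and 1 to 5 for that against Dox. Genes called in all were 1035 to 2299 between untreated lines (1406 without SPOC untreated replicate 5, 1076 and 1035 without GFP untreated replicates 1 and 2), 1260 to 2087 with Dox (1298 and 1260 without GFP Dox replicates 1 and 2) and 207 to 865 for the interaction against untreated. Ranges that crossed 0 were, for Dnmt3a, -0.1046 to 0.0092 (GFP Dox), -0.0203 to 0.0608 (GFP Dox+Auxin against untreated), -0.0872 to 0.0248 (the same in SPOC) and -0.1112 to 0.0089, -0.0979 to 0.0159 and -0.0511 to 0.051 (the interactions with Dox, with Dox+Auxin compared with untreated, and with Dox+Auxin compared with Dox). For Dnmt1 they were -0.0312 to 0.0448 (GFP Dox+Auxin against untreated) and -0.0177 to 0.0587 (between lines with Dox+Auxin). For Tet1 they were -0.1717 to 0.0477 (GFP Dox+Auxin against untreated) and -0.076 to 0.0141 (SPOC Dox+Auxin against Dox), and for Dnmt3l -0.0139 to 0.0597 (Dox interaction). For Tet2 they were -0.1092 to 0.0021 (between lines with Dox) and -0.0334 to 0.0792 (Dox interaction), and for Uhrf1 -0.0291 to 0.0456 (between untreated lines), -0.0165 to 0.0619 (with Dox) and -0.0267 to 0.0604 (Dox interaction). The cause of these changes was not tested. Each of the 7 genes had at least 1656 counts in every library.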
